A study of Mus musculus with 4 samples.

Results

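The dual-specificity mitogen-activated protein (MAP) kinase phosphatases *Dusp1*, *Dusp2*, *Dusp4*, *Dusp5*, *Dusp6*, *Dusp7*, *Dusp10*, and *Dusp16* are 8 of the 32285 genes counted in 4 single-cell RNA-sequencing (scRNA-seq) libraries of hematopoietic progenitors. They were chosen with their levels by cell class and library in view, so those levels are given as a description and nothing was tested on them. 1 library each was made from the spleen (TS) and bone marrow (TBM) of tumor-bearing mice and from the spleen (CS) and bone marrow (CBM) of control mice, all C57BL/6J and 8 to 16 weeks (female, by the study's methods). The tumor was PyMT-B6, a mammary tumor line transplanted under the skin. No genetic alteration is given for the hosts, and the number of mice behind a library is not given in the sources used here. By the study's methods, spleens were minced, while marrow was taken out by centrifugation. All 4 tissues were then digested with collagenase and DNase, depleted of lineage-positive (Lin+) cells, sorted on CD45, c-Kit, Sca-1, CD31, and CD51, and recombined at equal ratios, so that shares of cell classes follow the sort. With 1 library in each group there are no replicates, and a difference between groups cannot be told apart from a difference between libraries.

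These phosphatases remove phosphate from both the threonine and the tyrosine of the activation loop of MAP kinases and so switch them off. *Dusp1*, *Dusp2*, *Dusp4*, and *Dusp5* encode nuclear enzymes whose transcripts are induced rapidly by mitogen, cytokine, or stress signals, *Dusp6* and *Dusp7* encode cytoplasmic enzymes selective for ERK, and *Dusp10* and *Dusp16* encode enzymes that prefer JNK and p38. Because the kinases that they act on also drive their transcription, the inducible members are used as readouts of recent MAP kinase signaling, and *Dusp1* is also among the genes that enzymatic digestion of tissue can raise.

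On the mouse genome build GRCm38, with the GENCODE M21 annotation, *Dusp1* lay at chr17:26505590-26562128 on the minus strand, *Dusp2* at chr2:127336159-127338376 on the plus strand, and *Dusp5* at chr19:53529109-53542431 on the plus strand. The span of *Dusp1* overlapped *Ergic1* on the other strand, and those of *Dusp5*, *Dusp10*, and *Dusp16* overlapped the opposite-strand genes AC137853.2, *1700056E22Rik*, and *Gm36328*, all of which are in the matrices. The span of *Dusp1* also held the sense intronic gene AC122252.1, counted in the matrices on the same strand. The study's methods name Cell Ranger with its default settings, which count a read for a gene only on that gene's own strand. Strand alone thus does not set reads of AC122252.1 apart from those of *Dusp1*, and how such reads were counted was not examined. Upstream sequence was taken from a set of RefSeq promoters (GRCm38.p6) that held 7 of the 8 members (not *Dusp4*). Stretches of 200 bases that end 51 bases before the RefSeq start are shown for the 3 inducible members that the values turn on, to set their upstream elements side by side. The *Dusp1* stretch lay inside the gene span given above, which covers 6 annotated transcripts, so it is upstream of the RefSeq start only. Capitals mark the cyclic AMP response element (CRE) TGACGTCA and the E-box CACGTG in *Dusp1*, the E-box and the EGR site GCGNGGGCG in *Dusp2*, and 2 CArG boxes that stand next to each other and the CRE core TGACG, read on the other strand, in *Dusp5*.
Dusp1, chr17:26508523-26508722, minus strand: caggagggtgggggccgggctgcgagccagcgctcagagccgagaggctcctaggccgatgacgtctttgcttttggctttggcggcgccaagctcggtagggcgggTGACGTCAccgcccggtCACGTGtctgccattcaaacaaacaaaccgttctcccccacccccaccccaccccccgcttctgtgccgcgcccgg
Dusp2, chr2:127335909-127336108, plus strand: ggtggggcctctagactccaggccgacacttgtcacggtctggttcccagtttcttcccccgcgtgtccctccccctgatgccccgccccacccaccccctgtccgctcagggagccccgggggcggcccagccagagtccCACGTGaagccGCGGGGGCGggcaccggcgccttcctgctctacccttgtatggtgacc
Dusp5, chr19:53528895-53529094, plus strand: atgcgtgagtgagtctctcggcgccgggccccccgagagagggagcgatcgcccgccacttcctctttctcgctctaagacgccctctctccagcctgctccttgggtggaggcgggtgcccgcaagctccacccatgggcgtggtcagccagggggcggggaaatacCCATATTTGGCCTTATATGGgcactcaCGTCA

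These letters were searched on both strands in the 250 bases before the start of 32851 promoters. The full CRE was held by 1.55% of all promoters and, among the 7 members, by *Dusp1* alone, at 143 to 136 bases before the start. The CArG box, the site of serum response factor, was held by 1.47% of promoters and by *Dusp5* alone, at 82 to 73 and 72 to 63 bases before the start. The EGR site was held by 4.7% of promoters, by *Dusp2* at 98 to 90 bases, and by *Dusp16* at 138 to 130 bases before the start. The E-box, with 6.02% of promoters, was in *Dusp1* and *Dusp2*, the CRE core TGACG, with 17.8% and overlapping the full CRE, was in *Dusp1*, *Dusp5*, and *Dusp16*, and the CCAAT box, with 33.8%, was in *Dusp6*, *Dusp7*, *Dusp10*, and *Dusp16*. The AP-1 site TGANTCA (6.75% of promoters) and the κB site (3.9%) were in none of the 7 windows. A match describes the letters in this window and is not evidence that a factor binds there.

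Levels are unique molecular identifiers (UMIs), which count single RNA molecules, summed over the cells of a class and library and scaled to 1000000 UMIs of that class and library (counts per 1000000, CPM), with exact Poisson 95% intervals in parentheses that cover counting error only. Cells were barcodes with at least 1000 genes and at most 10% mitochondrial UMIs, with 5188 such cells in TS, 3236 in CS, 4340 in TBM, and 3497 in CBM and medians of 26808, 26322.5, 14386, and 13738 UMIs in the same order. The deposited libraries held 101811035 to 176094297 UMIs, and any 2 libraries shared 2 to 9 cell barcodes. The cells formed 37 clusters, made without the members, other dual-specificity phosphatases, and lists of immediate-early genes and of ERK feedback and target genes. Of the classes, 12 had at least 50 cells in 1 library or more, which gave 35 pools of class and library. The hematopoietic stem and progenitor cell (HSPC)-like class, in which all 13 HSPC markers were at least 2-fold higher than in the other cells, held 647 TS, 146 CS, 900 TBM, and 786 CBM cells. 1 large class joined the unnamed clusters with *Scin* or *Slc45a3* among their leading genes, a choice made after seeing the clusters. It is called by those genes, and its values were not split by cluster. Cells that would be named stromal or endothelial were confined to an unnamed cluster of 33 cells, although CD45- cells were among those sorted. Barcodes with at most 100 UMIs gave the level of free RNA. Many classes near or below it are pointed out, but not all, so a level without such a remark may also lie there. A level near or below free RNA was not taken as proof of background. In CS, hemoglobin-rich erythroid-like cells had *Dusp2* at 2.63 against 96.9 in free RNA, so a class can lie far below it.

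Over all cells, *Dusp1* had 58480 UMIs, *Dusp2* 28237, *Dusp5* 17861, *Dusp6* 4762, *Dusp7* 4289, *Dusp16* 2885, *Dusp10* 771, and *Dusp4* 329. After each cell was thinned to 2000 UMIs, at least 1 member was detected in 76.5% (73.05% to 79.7%) of the HSPC-like cells of TS and 78.8% (71.2% to 85.1%) of those of CS against 62.3% (59.03% to 65.5%) in TBM and 64.2% (60.8% to 67.6%) in CBM, with exact binomial 95% intervals. The range over the 4 libraries was 76.9% to 90.9% in mast or basophil-like cells and 10.0% to 25.8% in hemoglobin-rich erythroid-like cells. It was 74.2% in CBM and 81.8% in TBM in B cell-like cells and 76.03% in CS and 66.4% in TS in T, NK, or innate lymphoid-like cells. Hemoglobin-rich erythroid-like cells were thus below each of these other classes in every library.

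**Figure D1:**
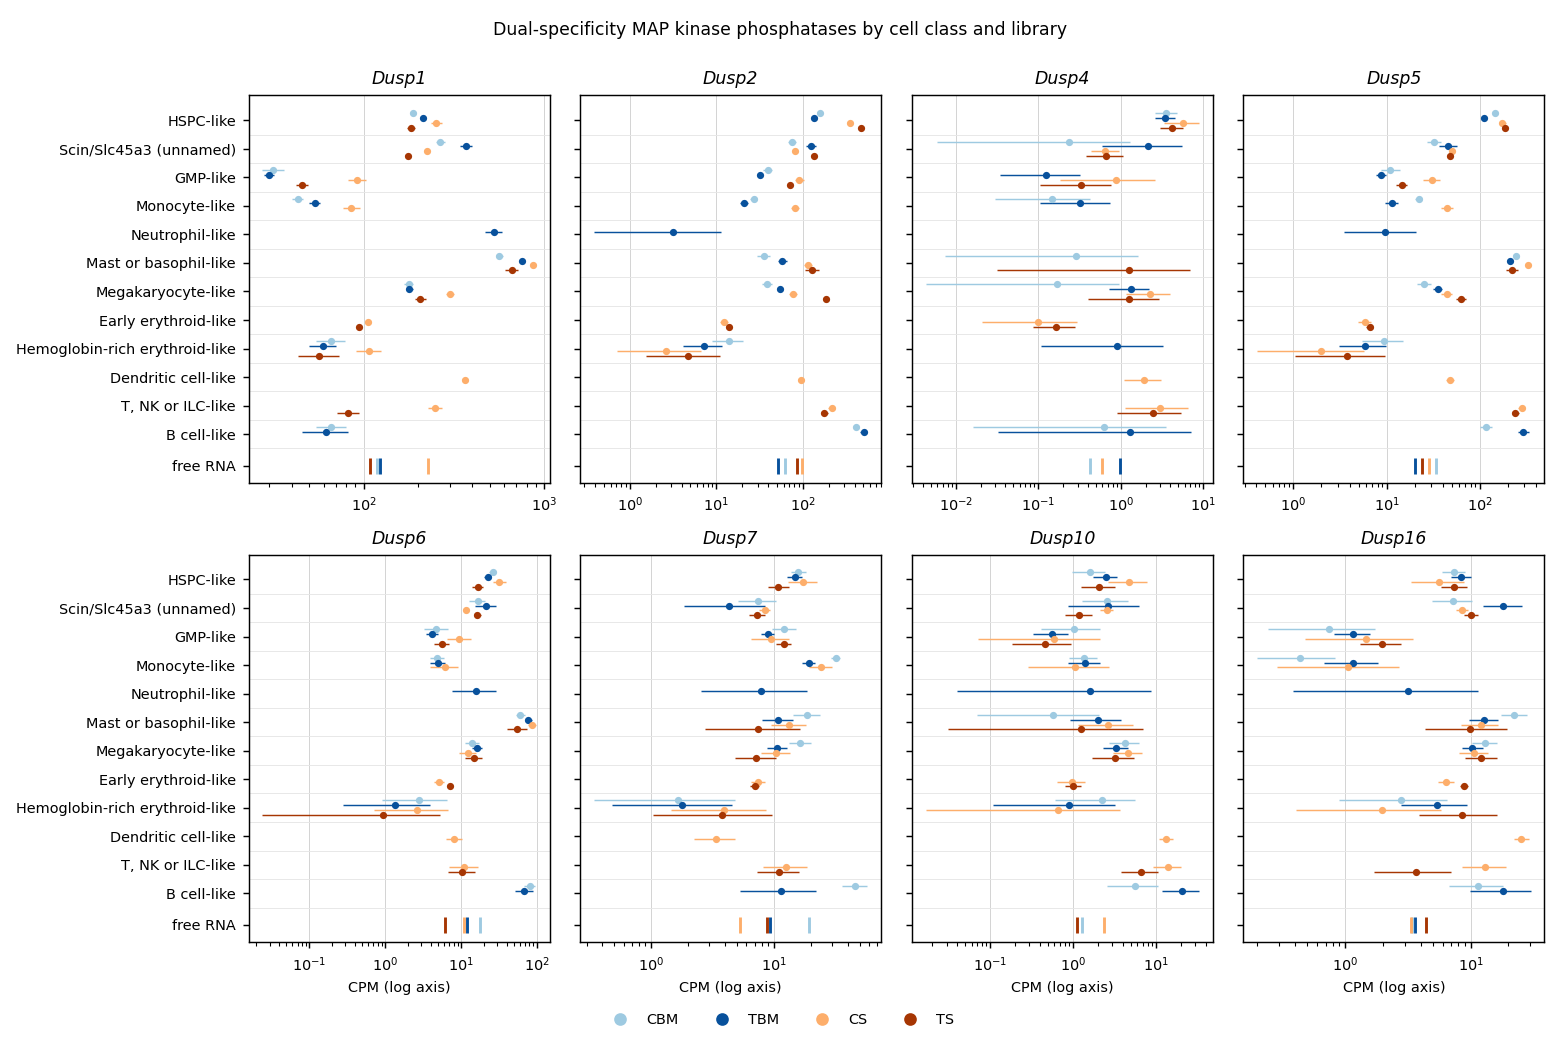
CPM of each member (x axis, log scale, with its own range in each panel) by cell class (y axis), with a point for each library with at least 50 cells and 95% counting intervals as bars; pools at 0 UMIs are not drawn. *Dusp1* was highest in mast or basophil-like cells, *Dusp2* in B cell-like and spleen HSPC-like cells, and ticks at the foot of each panel mark the level in free RNA.

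*Dusp2*, a nuclear phosphatase of blood cells that acts on ERK and p38, stood higher in spleen than in marrow in HSPC-like cells. Its level there was 476 (462 to 489.5) in TS and 348 (327 to 369) in CS against 135 (129 to 141) in TBM and 156 (149.6 to 163) in CBM. Both spleen libraries lay above both marrow libraries, TS was the highest, and all 4 were above free RNA, at 84.8 in TS and 96.9 in CS against 51.9 in TBM and 62.7 in CBM. Between the tissues, the log2 ratio stood at 1.82 (1.74 to 1.89) for TS over TBM and at 1.15 (1.04 to 1.26) for CS over CBM. It was 0.45 (0.36 to 0.55) for TS over CS and -0.21 (-0.30 to -0.12) for TBM over CBM, opposite in sign in the 2 tissues. At a matched 2000 UMIs per cell, 59.04% (55.1% to 62.9%) of the HSPC-like cells of TS and 47.3% (38.9% to 55.7%) of those of CS had a *Dusp2* UMI, against 25.1% (22.3% to 28.1%) in TBM and 28.8% (25.6% to 32.1%) in CBM. Hemoglobin-rich erythroid-like cells, set beside them for comparison, had shares of 1.61%, 0%, 0.667%, and 1.83% in the same order. Before thinning, their median depths were 13556, 18398, 12156, and 12836 UMIs, against 13442, 19486, 13216, and 14006 in HSPC-like cells. At the thinned depth, the 0 of 66 erythroid cells in CS had an exact binomial upper limit of 5.44%, and without thinning 6.06% of these cells had a UMI. Without thinning, the shares of HSPC-like cells were 95.8%, 92.5%, 74.6%, and 74.2%. After thinning, the order of the libraries by share of cells was the order by level.

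3 clusters made up the HSPC-like class, and the libraries drew on them unequally. Cluster 0, led by the stem cell genes *Hlf* and *Mecom* with *Dntt*, held 52 of 647 TS and 99 of 146 CS cells but 741 of 900 TBM and 675 of 786 CBM cells. Cluster 15 held 415 of the TS cells, with 21 of the CS, 24 of the TBM, and 0 of the CBM cells, and *Cxcl2*, *Ly6a*, and *Socs3* were among its leading genes. Cluster 16, of dividing cells with *Pimreg* and *Nusap1*, held 180 TS, 26 CS, 135 TBM, and 111 CBM cells. In cluster 0, *Dusp2* was 384 (334 to 438) in TS and 364 (338 to 392) in CS against 149 (141 to 156) in TBM and 168 (159.9 to 177) in CBM. In cluster 16 it was 361 (342 to 381) in TS and 241 (209.8 to 276) in CS against 101 (91.01 to 112) in TBM and 122 (109.95 to 135) in CBM. In cluster 15 it was 83.8 (56.9 to 119) in TBM, 505 (436 to 581) in CS, and 572 (551 to 593) in TS. Spleen was above marrow in each of the 3 clusters, whereas TS and CS had overlapping intervals in clusters 0 and 15 and TS was above CS in cluster 16. When cluster 15 was left out, a choice made after seeing the data, the *Dusp2* log2 ratio was 1.42 for TS over TBM and 0.16 for TS over CS. *Dntt*, a marker of lymphoid-primed progenitors, moved with the groups, at 28.6 in TS and 7.52 in CS against 75.3 in TBM and 164 in CBM. With cells that had a *Dntt* UMI left out, the *Dusp2* ratio was 1.90 for TS over TBM and 1.41 for CS over CBM.

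**Figure D2:**
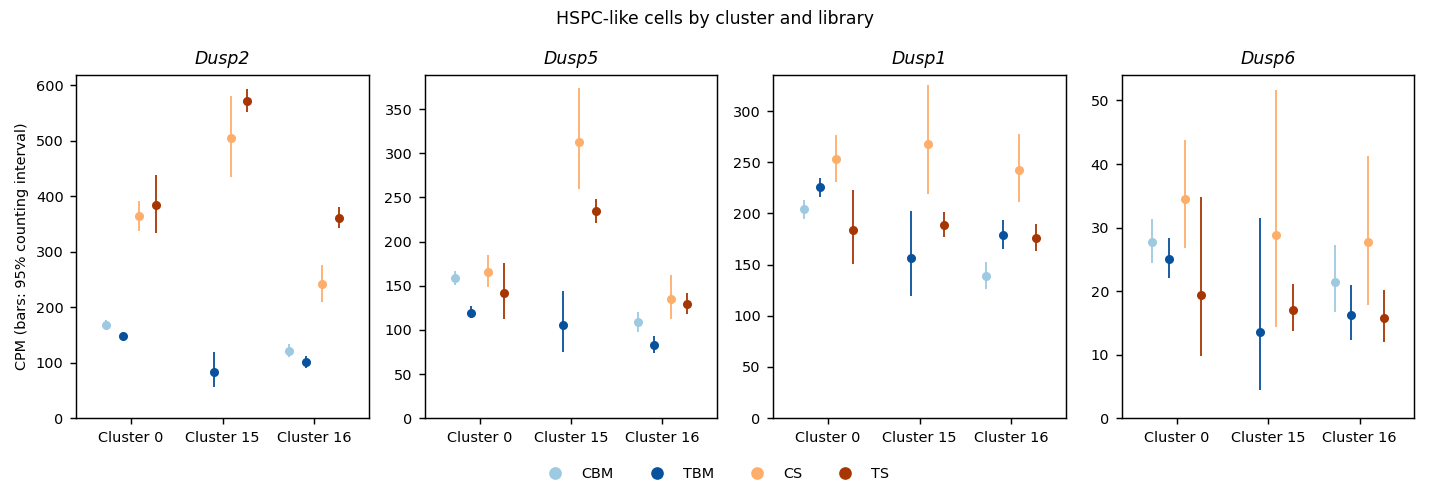
CPM (y axis, from 0) of *Dusp2*, *Dusp5*, *Dusp1*, and *Dusp6* in the 3 HSPC-like clusters (x axis), with a point for each library with at least 20 cells in the cluster and 95% counting intervals as bars. *Dusp2* was higher in both spleen libraries than in the marrow libraries in each cluster, and cluster 15 has no CBM point because it held 0 CBM cells.

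Outside HSPC-like cells, *Dusp2* was highest in B cell-like cells, at 412 (381 to 444) in CBM and 508 (459 to 560.3) in TBM, the 2 libraries with at least 50 such cells. The interval of B cell-like cells in TBM overlapped that of HSPC-like cells in TS, so the 2 highest pools were not separated by counting error. T, NK, or innate lymphoid-like cells followed, at 217 (197 to 238) in CS and 177 (161 to 195) in TS. In megakaryocyte-like cells the level was 186 (173 to 199.7) in TS and 76.9 (69.7 to 84.8) in CS against 54.2 (49.9 to 58.9) in TBM and 38.5 (33.6 to 43.8) in CBM, with a log2 ratio of 1.27 (1.10 to 1.45) for TS over CS and 1.78 (1.62 to 1.94) for TS over TBM. Only the TS level was clearly above free RNA, and the megakaryocyte-like levels of the other libraries were near or below it. The megakaryocyte-like class held 3 clusters, and its values were not split by them. The *Scin* and *Slc45a3* class, with 133 (129 to 138) in TS and 81.5 (78.8 to 84.3) in CS against 125 (109 to 142) in TBM and 75.8 (67.8 to 84.5) in CBM, did not separate the tissues, at log2 ratios of 0.09 (-0.10 to 0.29) for TS over TBM and 0.10 (-0.06 to 0.27) for CS over CBM. Its tumor-bearing libraries were instead the higher of each pair and above free RNA, with 0.71 (0.64 to 0.78) for TS over CS and 0.72 (0.47 to 0.97) for TBM over CBM, while CS lay below free RNA and CBM near it. In granulocyte-monocyte progenitor (GMP)-like cells *Dusp2* was 71.6 (67.4 to 75.97) in TS and 91.5 (81.5 to 102) in CS against 31.9 (29.97 to 33.9) in TBM and 39.6 (35.001 to 44.7) in CBM, and every one of these lay at or below the free RNA level of its own library, as did monocyte-like cells, at 27.1 in CBM, 21.02 in TBM, and 81.5 in CS. In mast or basophil-like cells it was 129 (105 to 156) in TS and 116 (104 to 128) in CS against 58.3 (51.4 to 65.8) in TBM and 35.4 (29.4 to 42.3) in CBM, above free RNA in CS and TS and near or below it in CBM and TBM, with a log2 ratio of 1.14 (0.80 to 1.48) for TS over TBM and 1.71 (1.40 to 2.02) for CS over CBM. This class held 3 clusters in different shares in the libraries. In cluster 23, led by *Gzmb* and *Cma1*, *Dusp2* was 202 (162 to 249) in TS and 225 (198 to 254) in CS against 127 (102 to 155) in TBM and 72.9 (58.7 to 89.5) in CBM, a ratio of 0.67 (0.23 to 1.11) for TS over TBM and 1.63 (1.28 to 1.99) for CS over CBM. In cluster 3, led by chemokine genes, it was 12.3 (1.49 to 44.6) in TS and 46.2 (36.6 to 57.5) in CS against 34.5 (24.9 to 46.4) in TBM and 14.2 (9.302 to 20.9) in CBM, below free RNA in every library and from 2 UMIs in TS, and in cluster 21 it was 64.3 in TS and 50.03 in TBM. The 2-fold ratio of TS over TBM in the class was thus in none of its clusters, while that of CS over CBM was in cluster 23, above free RNA in CS and near it in CBM, and in cluster 3, at 1.70 (1.04 to 2.40) with both levels below free RNA. Hemoglobin-rich erythroid-like cells, at 2.63 to 13.9, early erythroid-like cells, at 12.4 in CS and 14.1 in TS, and neutrophil-like cells of TBM, with 2 UMIs, were the lowest pools.

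*Dusp5*, a nuclear phosphatase that is specific for ERK, stood at 186 (178 to 195) in TS and 175 (161 to 190.03) in CS against 110.01 (105 to 116) in TBM and 146 (139 to 153) in CBM in HSPC-like cells. Free RNA was 24.1 in TS and 28.6 in CS against 20.2 in TBM and 33.5 in CBM, so all 4 libraries were well above it. TS and CS were the highest and their intervals overlapped, and TBM was the lowest. TS over TBM had a log2 ratio of 0.76 (0.66 to 0.86) and CS over CBM one of 0.26 (0.12 to 0.40). TS over CS had 0.09 (-0.05 to 0.23) and TBM over CBM -0.41 (-0.51 to -0.31), so the tumor-bearing marrow was the lower of its pair and the spleen pair was not separated. In cluster 0 the levels were 141 (112 to 176) in TS and 166 (148 to 185) in CS against 119.7 (113 to 127) in TBM and 159 (151 to 167) in CBM, and in cluster 15 they were 105 (74.95 to 144) in TBM, 313 (259 to 374) in CS, and 234 (221 to 248) in TS. In cluster 16 they were 129 (118 to 141) in TS and 135 (112 to 162) in CS against 82.5 (73.3 to 92.6) in TBM and 109 (97.4 to 121) in CBM, a ratio of 0.65 (0.44 to 0.86) for TS over TBM. Without cluster 15, the ratio of TS over TBM was 0.25, with the remaining cells mostly of cluster 16 in TS and mostly of cluster 0 in TBM.

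*Dusp5* was also high in mast or basophil-like cells, at 224 (192 to 259) in TS and 331 (311 to 352) in CS against 211 (198 to 225) in TBM and 245 (229 to 263) in CBM. It was 281 (258 to 305) in CS and 240.5 (221 to 261) in TS in T, NK, or innate lymphoid-like cells. B cell-like cells had 117 (101 to 135) in CBM and 294 (257 to 335) in TBM, a log2 ratio of 1.33 (1.05 to 1.62) for TBM over CBM. In megakaryocyte-like cells it was 63.2 (55.7 to 71.5) in TS and 44.1 (38.6 to 50.1) in CS against 35.3 (31.8 to 39.1) in TBM and 25.3 (21.4 to 29.7) in CBM, with CBM below its free RNA and TS the highest. Dendritic cell-like cells of CS had 47.5 (42.9 to 52.4) and the *Scin* and *Slc45a3* class 32.2 to 50.8, with CBM, the lowest, near its free RNA. GMP-like cells had 14.6 (12.7 to 16.6) in TS and 30.5 (24.9 to 36.98) in CS against 8.76 (7.77 to 9.85) in TBM and 10.98 (8.62 to 13.8) in CBM, near or below free RNA, and 76 of the 148 CS cells of this class were in a cluster led by *Tsix*, AY036118, and *Gm26917* with a median of 2777 UMIs. Erythroid-like classes were at 1.98 to 9.44, below free RNA. B cell-like cells of TBM, mast or basophil-like cells of CS, and T, NK, or innate lymphoid-like cells of CS were the 3 highest pools. The interval of B cell-like cells overlapped both others, which did not overlap each other.

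*Dusp1*, a nuclear phosphatase that acts on p38, JNK, and ERK and limits inflammatory transcripts, was 183 (175 to 192) in TS and 252 (235 to 270.03) in CS against 212 (204 to 219.7) in TBM and 188 (180.03 to 195) in CBM in HSPC-like cells. Free RNA held 108 in TS and 228 in CS against 124 in TBM and 119 in CBM, so the HSPC-like level of CS was close to that of its free RNA and the others were above theirs. CS was the highest, TBM the next, and CBM and TS had overlapping intervals. TS over CS had a log2 ratio of -0.46 (-0.58 to -0.34) and TBM over CBM one of 0.18 (0.10 to 0.26), opposite in sign. TS over TBM had -0.21 (-0.30 to -0.12) and CS over CBM 0.43 (0.31 to 0.54), so *Dusp1* did not share the large spleen over marrow ratios of *Dusp2*.

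The highest *Dusp1* levels were in mast or basophil-like cells, at 659.6 (604 to 718) in TS and 864 (831 to 898) in CS against 754 (729 to 779.6) in TBM and 562 (538 to 588) in CBM. This class was a mixture, with cluster 3 (led by *Ccl6*, *Ccl3*, and *Ccl4*) holding 45 of 97 TS, 296 of 373 CS, 230 of 508 TBM, and 414 of 535 CBM cells, cluster 21 (*Prss34*, *Mcpt8*) 21, 5, 229, and 44, and cluster 23 (*Gzmb*, *Cma1*) 31, 72, 49, and 77. Within cluster 3, *Dusp1* was 1869.8 (1665 to 2093) in TS and 1157 (1107 to 1209) in CS against 1349.6 (1286 to 1416) in TBM and 804 (763 to 846) in CBM, and the log2 ratio of TS over CS was 0.69 (0.51 to 0.87), against -0.39 (-0.53 to -0.25) in the class as a whole. In cluster 23 it was 459.6 (421 to 501) in CS and 332 (280.5 to 391) in TS, a ratio of -0.47 (-0.74 to -0.20). The sign of the tumor difference in spleen thus changed with the cluster, and the libraries held the clusters in different shares. With every cell of the class thinned to 2000 UMIs, the class ratio was 0.17.

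Neutrophil-like cells had 526 (471 to 586) in TBM, the 1 library with at least 50 of them, and dendritic cell-like cells 364 (352 to 378) in CS. The *Scin* and *Slc45a3* class had 175 (170.1 to 181) in TS and 224 (219 to 228) in CS against 369.5 (342 to 398) in TBM and 265 (250.1 to 281) in CBM, with CS at the level of its free RNA. In megakaryocyte-like cells it was 206 (192 to 221) in TS and 301 (286 to 316) in CS against 179 (171 to 187) in TBM and 178 (167 to 189) in CBM. T, NK, or innate lymphoid-like cells had 247 (226 to 270.2) in CS and 81.9 (70.9 to 94.1) in TS, a log2 ratio of -1.59 (-1.84 to -1.35), with the CS level close to that of its free RNA and the TS level below it. GMP-like, monocyte-like, B cell-like, and both erythroid-like classes lay at or below free RNA in every library. Whether the *Dusp1* UMIs of those classes came from the cells or from free RNA was not tested.

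*Dusp4*, a nuclear phosphatase close to *Dusp1* in sequence and function, was the scarcest member, and its 4 highest pools were the 4 HSPC-like ones. There it had 40 UMIs in TS and 18 in CS against 49 in TBM and 45 in CBM. The level was 4.17 (2.98 to 5.67) in TS and 5.64 (3.34 to 8.92) in CS against 3.48 (2.57 to 4.598) in TBM and 3.58 (2.61 to 4.79) in CBM, with overlapping intervals in all 4 libraries and free RNA at 0 in TS and 0.592 in CS against 0.991 in TBM and 0.4298 in CBM. These 0 UMIs of TS allow up to 0.832. No difference between libraries was detectable at this depth. T, NK, or innate lymphoid-like cells, with 6 UMIs in CS and 6 in TS, came next.

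*Dusp6*, the cytoplasmic ERK phosphatase whose transcript is itself an ERK target, was 16.7 (14.2 to 19.5) in TS and 31.97 (26.1 to 38.8) in CS against 22.6 (20.2 to 25.2) in TBM and 26.2 (23.4 to 29.2) in CBM in HSPC-like cells, with free RNA at 6.099 in TS and 10.9 in CS against 11.9 in TBM and 17.6 in CBM. TS was the lowest library, with a log2 ratio of -0.94 (-1.31 to -0.57) against CS, while TBM over CBM had -0.21 (-0.44 to 0.01). In cluster 0 alone, TS over CS was -0.82 (-1.89 to 0.11), with 52 TS cells behind it. In cluster 15 *Dusp6* was at -0.76 (-1.67 to 0.30) and in cluster 16 at -0.82 (-1.52 to -0.07). Only the interval of cluster 16 left out 0. The highest *Dusp6* levels were in mast or basophil-like cells, at 54.96 (39.9 to 73.8) in TS and 85.9 (75.7 to 97.1) in CS against 77.5 (69.5 to 86.05) in TBM and 60.7 (52.7 to 69.5) in CBM, and in B cell-like cells, at 80.3 (66.9 to 95.5) in CBM and 68.1 (51.03 to 89.1) in TBM. The interval of TBM B cell-like cells overlapped those of all 5 other pools. Outside these 3 classes *Dusp6* was between 0.947 in hemoglobin-rich erythroid-like cells of TS and 21.5 in the *Scin* and *Slc45a3* class of TBM. In cluster 3 of the mast or basophil-like cells *Dusp6* was 154 (99.8 to 228) in TS and 123 (107 to 141) in CS against 157 (136 to 181) in TBM and 90.9 (77.6 to 106) in CBM, so TS was not the lowest there.

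*Dusp7*, the other cytoplasmic ERK phosphatase, was 10.9 (8.94 to 13.2) in TS and 17.2 (12.99 to 22.4) in CS against 14.8 (12.9 to 16.99) in TBM and 15.9 (13.8 to 18.3) in CBM in HSPC-like cells, and the log2 ratio of TS over CS was -0.66 (-1.14 to -0.16). In CBM the level was below the free RNA level of 19.3, and in TBM, CS, and TS free RNA was 9.25, 5.33, and 8.87. By cluster, TS over CS was -1.59 (-3.94 to 0.09) in cluster 0, -0.19 (-1.39 to 1.30) in cluster 15, and -1.38 (-2.265 to -0.46) in cluster 16. After B cell-like cells of CBM, the highest *Dusp7* levels were in monocyte-like cells, at 31.9 (29.5 to 34.5) in CBM, 19.2 (17.1 to 21.5) in TBM, and 24.1 (19.4 to 29.6) in CS. B cell-like cells had 46.2 (36.2 to 58.03) in CBM from 73 UMIs and 11.6 (5.29 to 21.96) in TBM from 9 UMIs, a log2 ratio of -2.00 (-3.18 to -0.99) for TBM over CBM. The TBM level was near its free RNA. *Dusp5* differed between the same 2 pools in the other direction.

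*Dusp10*, which acts on JNK and p38, was 2.08 (1.27 to 3.22) in TS and 4.701 (2.63 to 7.75) in CS against 2.48 (1.73 to 3.45) in TBM and 1.59 (0.972 to 2.46) in CBM in HSPC-like cells, from 15 to 35 UMIs a library. Its highest levels were in B cell-like cells of TBM, at 20.6 (11.8 to 33.4), T, NK, or innate lymphoid-like cells of CS, at 14.1 (9.39 to 20.4), and dendritic cell-like cells of CS, at 13.3 (10.95 to 16.03). These 3 intervals overlapped, and free RNA was 2.37 in CS and 0 in TBM, where 0 UMIs allow up to 0.991. T, NK, or innate lymphoid-like cells of TS had 6.59 and B cell-like cells of CBM 5.69, and the pools of the other classes were between 0 and 4.701, the level of HSPC-like cells of CS. *Dusp16*, which acts on the same kinases, was 7.39 (5.78 to 9.33) in TS and 5.64 (3.34 to 8.92) in CS against 8.45 (6.997 to 10.1) in TBM and 7.399 (5.97 to 9.06) in CBM in HSPC-like cells, with intervals that overlapped in all 4 libraries. Dendritic cell-like cells of CS had 25.4 (22.1 to 29.1) and mast or basophil-like cells of CBM 22.4 (17.6 to 27.9), with overlapping intervals, and the lowest pool was monocyte-like cells of CBM, at 0.435 (0.199 to 0.826). In T, NK, or innate lymphoid-like cells, 3 of the 7 members that passed the filter of at least 20 UMIs and a mean of at least 5 CPM over the 2 libraries compared (*Dusp1*, close to free RNA in CS and below it in TS, *Dusp10*, and *Dusp16*) were at least 2-fold lower in TS than in CS, where 10.8% of all genes that passed were, and 0 were higher, against 3.08% of genes. The log2 ratio was -1.10 (-2.09 to -0.17) for *Dusp10* and -1.82 (-3.10 to -0.69) for *Dusp16*, from 16 and 9 UMIs in TS, and the *Dusp16* level in TS, at 3.71, lay below its free RNA, at 4.44.

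In HSPC-like cells, 6 of the 8 members passed this filter, and *Dusp4* and *Dusp10* did not. Of those 6, 1 (*Dusp2*) was at least 2-fold higher in TS than in TBM, where 0.776% of all genes that passed were, and 1 (*Dusp2*) was at least 2-fold higher in CS than in CBM, where 1.22% were. None was at least 2-fold higher in TS than in CS or in TBM than in CBM, where 0.826% and 0.717% of genes were. None was at least 2-fold lower in any of the 4 comparisons, against 1.58% of genes for TS below CS, 0.596% for TBM below CBM, 0.624% for CS below CBM, and 0.858% for TS below TBM. With each cell thinned to 2000 UMIs, so that cells count equally, *Dusp2* was at 0.95 for CS over CBM and the count there was 0, and without the filter *Dusp10* was counted too, which made it 2. The count of members lower in TS than in CS was 1 without the filter, with *Dusp10* at -1.17 (-2.21 to -0.10), and 2 without cluster 15, with *Dusp6* at -1.001 and *Dusp7* at -1.19. The members were chosen with these comparisons in view, so the counts are given beside the shares of all genes and nothing is read from them. The median over the 6 was -0.18, -0.16, 0.27, and -0.20 in the comparisons of TS with CS, TBM with CBM, CS with CBM, and TS with TBM, where over all genes it was -0.03, -0.01, 0.02, and -0.0027. The 4 comparisons share libraries and are not independent of one another.

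**Figure D3:**
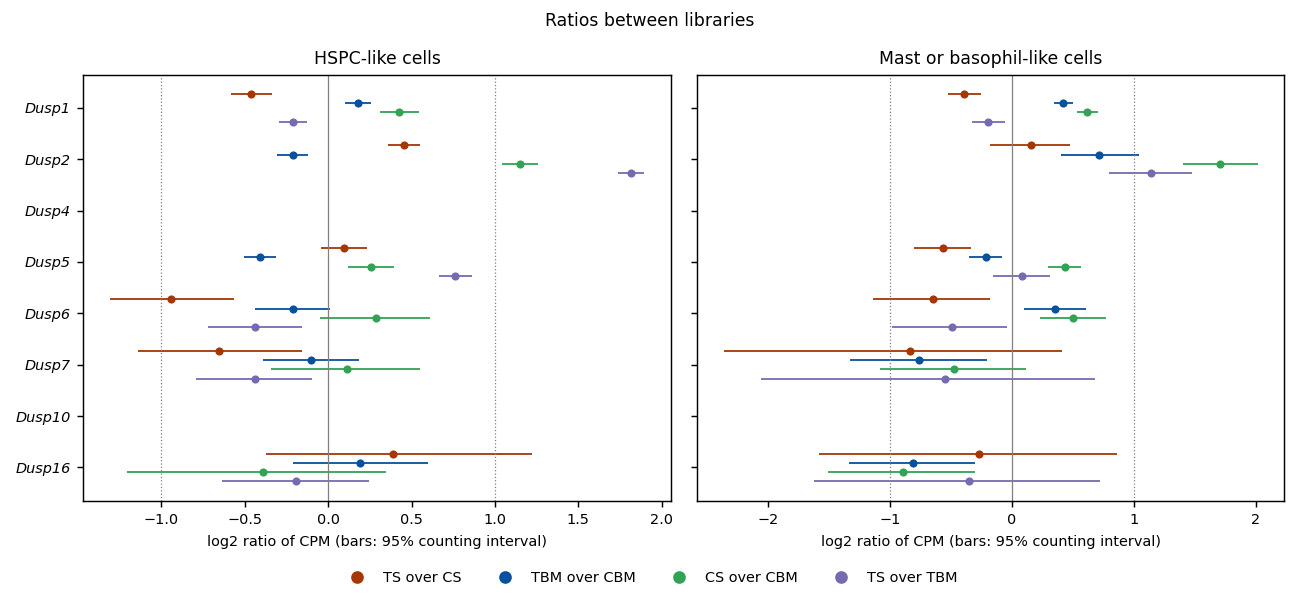
Log2 ratio of CPM (x axis) of each member (y axis) in HSPC-like and mast or basophil-like cells for 4 pairs of libraries, with 95% counting intervals as bars and dotted lines at 2-fold; members under the filter on low values have no point. *Dusp2* lay above 0 for spleen over marrow in both classes, although in mast or basophil-like cells the TS over TBM ratio of 2-fold was in none of the clusters. *Dusp6* lay below 0 for TS over CS in both classes. Within the mast or basophil-like class, this *Dusp6* ratio was 0.33 (-0.33 to 0.93) in cluster 3 and -0.27 (-1.25 to 0.63) in cluster 23.

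The genes that share this pathway were read from 4 lists in HSPC-like cells. Of 17 MAP kinases and their activating kinases, 13 passed the filter and 0 were 2-fold higher or lower in any of the 4 comparisons, with medians of -0.04, -0.03, -0.0012, and -0.0032 in the order given for the members. Of 17 feedback inhibitors and targets of ERK, 11 passed, and *Egr1*, *Egr3*, and *Phlda1* were at least 2-fold higher in CS than in CBM and in TS than in TBM. *Egr1*, an early growth response factor, was 1143 in TS and 1055 in CS against 253 in TBM and 279 in CBM. *Spry1*, which encodes an inhibitor of receptor signaling to ERK, was 5.103 in TS and 20.1 in CS against 15.97 in TBM and 14.6 in CBM, a log2 ratio of -1.97 (-2.54 to -1.42) for TS over CS. *Egr3* and *Ccnd1* were also at least 2-fold lower in TS than in CS, and 0 genes of this list passed 2-fold between TBM and CBM. *Egr1* was thus higher in spleen than in marrow, as *Dusp2* was, while *Spry1* and *Dusp6* were lowest in TS in the class as a whole. By cluster, *Dusp6* for TS over TBM was -0.37 (-1.39 to 0.50) in cluster 0 and 0.34 (-0.94 to 2.00) in cluster 15. In cluster 16 it was -0.04 (-0.59 to 0.50), so TS and TBM were not separated within the clusters. *Spry1* was not split by cluster.

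Of 24 immediate-early genes, a list that also holds genes raised by tissue digestion, 22 passed. In CS over CBM 9 were at least 2-fold higher (*Fosb*, *Jun*, *Ier3*, *Atf3*, *Btg2*, *Klf2*, *Nfkbia*, *Nfkbiz*, and *Gadd45b*) and 0 lower, and in TS over TBM 6 were higher and 2, *Klf4* and *Klf6*, lower. In TS over CS, *Socs3* was higher and *Fosb*, *Atf3*, *Klf4*, and *Klf6* were lower, and in TBM over CBM *Socs3* alone was higher. The list median was -0.06, 0.18, 0.89, and 0.57 in the order given for the members. The part of these genes in the *Dusp2* difference was not tested. Of 16 other dual-specificity phosphatases, 7 passed, and *Dusp18* alone passed 2-fold, with a log2 ratio of -1.64 (-2.40 to -0.88) for TS over CS and -1.93 (-2.53 to -1.37) for TS over TBM.

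**Figure D4:**
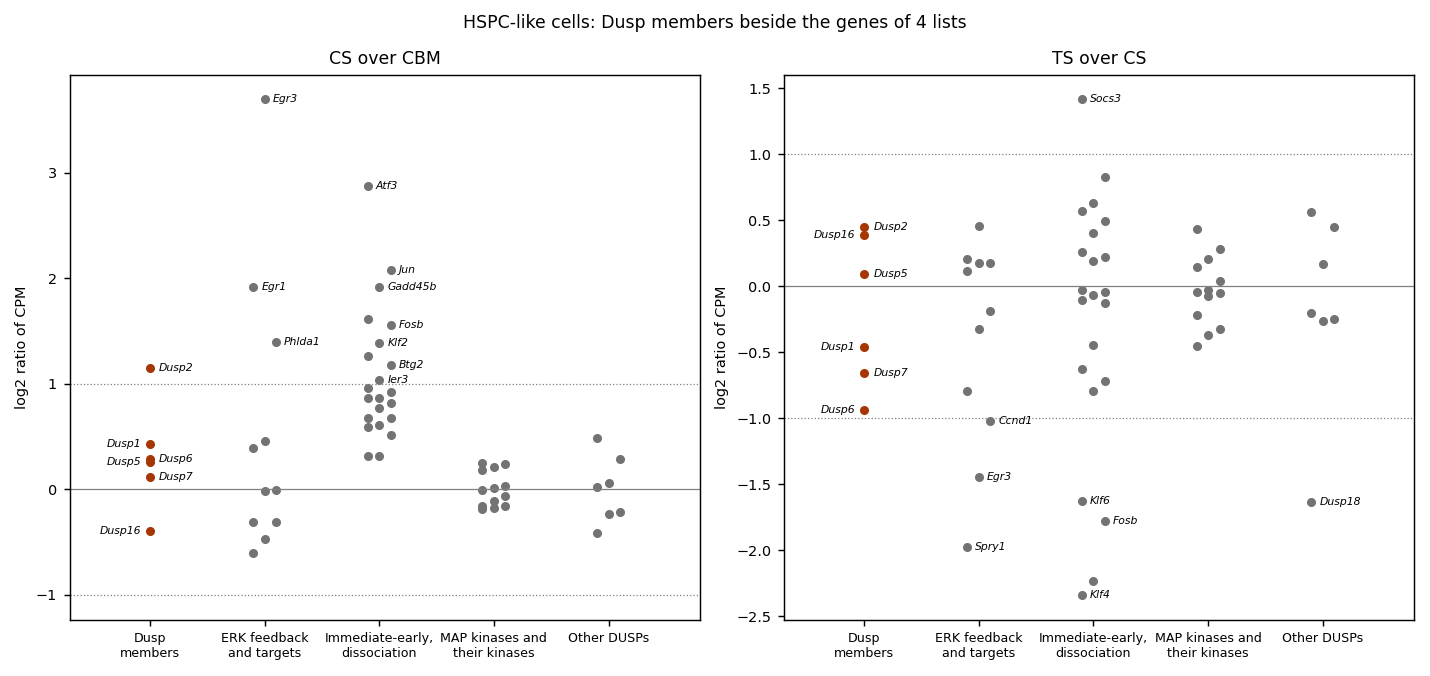
Log2 ratio of CPM (y axis, with its own range in each panel) of the members and of the genes of 4 lists that passed the filter in HSPC-like cells, for CS over CBM and TS over CS, with dotted lines at 2-fold and names on most genes past it. The MAP kinases stayed within 2-fold, and the immediate-early genes lay above 0 in CS over CBM and on both sides of it in TS over CS.

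Within single HSPC-like cells, thinned to 2000 UMIs, *Dusp2* was detected in 64.8% (60.5% to 68.98%) of 509 cells with a UMI of *Egr1* and 37.7% (29.6% to 46.3%) of 138 without in TS. In TBM it was detected in 31.7% (26.6% to 37.1%) of 322 cells with a UMI of *Egr1* and 21.5% (18.2% to 25.1%) of 577 without. In CBM it was detected in 30.4% (24.9% to 36.4%) of 260 cells with a UMI of *Egr1* and 27.9% (24.1% to 31.99%) of 526 without, with overlapping intervals. For *Dusp5* as the partner, *Dusp2* was detected in 71.98% (65.3% to 77.98%) of 207 cells with a UMI of *Dusp5* and 52.95% (48.2% to 57.7%) of 440 without in TS and in 31.9% (25.3% to 39.1%) of 188 cells with a UMI of *Dusp5* and 27.8% (24.2% to 31.5%) of 598 without in CBM. *Dusp1* was detected in 32.8% (29.2% to 36.5%) of 665 cells with a UMI of *Fos* and 14.9% (9.06% to 22.5%) of 121 without in CBM and in 36.1% (32.7% to 39.6%) of 767 cells with a UMI of *Fos* and 17.4% (11.4% to 24.99%) of 132 without in TBM. The intervals of cells with and without the partner did not overlap for *Dusp2* with *Egr1* in TBM and TS, for *Dusp2* with *Dusp5*, *Dusp2* with *Dusp1*, and *Dusp1* with *Dusp5* in TS, or for *Dusp1* with *Fos* in both marrow libraries. They overlapped for these pairs in the other libraries and for *Dusp6* with *Spry1* in all 4. In mast or basophil-like cells, 2 *Dusp2* pairs went the other way. With *Egr1* in TBM the shares were 5.27% (3.41% to 7.75%) of 455 cells with it and 21.2% (11.1% to 34.7%) of 52 without. With *Dusp5* in CS they were 5.38% (2.61% to 9.66%) and 17.7% (12.5% to 24.0%), of 186 cells each. Intervals of the other *Dusp2* pairs overlapped there. *Dusp1* with *Fos* was higher with the partner, without overlap, in CBM, TBM, and TS. Cells of 1 library are not replicates, and the libraries drew on the clusters of both classes unequally.

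Over the 35 pools, the genes most like each member were ranked by the Pearson correlation of log2(CPM + 10) among 6179 genes with a mean of at least 20 CPM. The pools share libraries and classes, so the values describe likeness and carry no test. For *Dusp1* they were *Tob1* (0.87), *Junb* (0.86), and *Egr1* (0.85), of which *Junb* and *Egr1* encode immediate-early transcription factors. For *Dusp2* they were *Atrx* (0.90), *Csrnp1* (0.89), and *Pde4b* (0.89). For *Dusp5* they were *Zc3h12a* (0.94), *Ddx5* (0.92), and *Rasal3* (0.91), where *Zc3h12a* encodes an RNase that degrades cytokine transcripts. For *Dusp6* they were *Ccng2* (0.93), *Sgk1* (0.90), and *Chst15* (0.90). For *Dusp7* they were *Zfp706* (0.75), *Wls* (0.75), and *Mgat1* (0.74), for *Dusp16* *Zfp36l1* (0.85), *Aftph* (0.81), and *Trip12* (0.79), for *Dusp10* *Csnk1g3* (0.83), *Marcks* (0.80), and *Slamf6* (0.78), and for *Dusp4* *Gm47664* (0.78), *Basp1* (0.75), and *Cd27* (0.74), the last 2 at levels where few UMIs set the values. Among the members, *Dusp2* with *Dusp5* had 0.80, *Dusp5* with *Dusp6* 0.80, and *Dusp1* with *Dusp7* -0.10.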

How the data were processed

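4 droplet scRNA-seq libraries were analysed, 1 each of CBM, TBM, CS, and TS, grouped by the labels. The deposited values are counts of UMIs per gene and barcode for all barcodes, whole numbers without normalization, which the authors made with Cell Ranger 4.0 on mm10, per the submitters' processing notes. The ambient RNA removal and the later steps of the study's methods are not in these counts.

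Cells were barcodes with at least 1000 genes and at most 10% mitochondrial UMIs. They were clustered with scikit-learn 1.9.0 and igraph 0.11.9 on 3000 variable genes, 50 principal components, 20 neighbours, and a resolution of 1.2. The members, the other dual-specificity phosphatases, and the lists of immediate-early genes and of ERK feedback and target genes were left out. Clusters were named "X-like" from marker lists, with at least 3 markers at 2-fold. Doublets were not removed in the main values. UMIs were summed by class and library, for classes with at least 50 cells, and levels had exact Poisson and log2 ratios exact conditional 95% intervals (scipy 1.17.1, numpy 2.4.6, pandas 2.3.3, Python 3.11.15, checked on simulated data). Shares came from cells thinned to 2000 UMIs, without shallower cells (in the HSPC-like class, 1 cell of TBM). The limit beside a level of 0 is 3 counts of its total. Free RNA came from barcodes with at most 100 UMIs. With 1 library per group no test was made, and a gene counts as higher or lower past 2-fold with at least 20 UMIs and a mean of 5 CPM.

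The genes named were the members, the genes of 4 lists, and the 3 genes most like each member; cluster-leading genes, *Dntt*, and overlapping genes were named besides. The members and lists were chosen with earlier results of these data known. 10 alternatives were planned and 3 added after seeing the data, as were the counts of lower members under each. TS, CS, TBM, and CBM had 176094297, 145301019, 135207987, and 101811035 UMIs in that order.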

Additional observations from a re-analysis of the deposited data

Results flagged for a closer look

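In 5 cases a member differed with the tumor in opposite directions in spleen and marrow, each ratio having a counting interval that left out 0. Most pairs of member and class compared in this way did not. The share of all genes that did so was not computed, so nothing is read from this count. With 1 library per group the difference between the tissues was not tested, and the intervals cover counting error only.

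In HSPC-like cells the log2 ratio of *Dusp1* was -0.46 for TS over CS and 0.18 for TBM over CBM, a difference of -0.64 (-0.78 to -0.49), and that of *Dusp2* was 0.45 for TS over CS and -0.21 for TBM over CBM, a difference of 0.66 (0.53 to 0.80). The 2 inducible phosphatases thus stood on opposite sides in both tissues in the class as a whole. By cluster, *Dusp2* for TS over CS was 0.08 (-0.15 to 0.30) in cluster 0, 0.18 (-0.03 to 0.40) in cluster 15, and 0.58 (0.37 to 0.80) in cluster 16. Only the last interval left out 0. *Dusp1* was -0.46 (-0.78 to -0.15), -0.51 (-0.80 to -0.20), and -0.46 (-0.69 to -0.23) in the same order. The HSPC-like *Dusp1* level of CS was close to that of its free RNA. In mast or basophil-like cells *Dusp1* had -0.39 for TS over CS and 0.42 for TBM over CBM, a difference of -0.81 (-0.97 to -0.65), and *Dusp6* had -0.64 for TS over CS and 0.35 for TBM over CBM, a difference of -0.996 (-1.52 to -0.47). Within the chemokine-rich cluster 3 of this class *Dusp1* had 0.69 (0.51 to 0.87) for TS over CS and 0.75 (0.65 to 0.85) for TBM over CBM, the same sign in both tissues, and *Dusp6* had 0.33 (-0.33 to 0.93) and 0.79 (0.48 to 1.10). In the *Scin* and *Slc45a3* class *Dusp1* had -0.35 for TS over CS and 0.48 for TBM over CBM, a difference of -0.83 (-0.98 to -0.68), with the CS level close to that of its free RNA. This class was not split by cluster.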

How the results depend on the processing

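The count of members at least 2-fold higher in HSPC-like cells was the same under all alternatives for TS over CS (0), TS over TBM (1), and TBM over CBM (0). For CS over CBM it was 1, but 0 with cells thinned to 2000 UMIs, where each cell counts equally, and 2 without the filter on low values, which added *Dusp10*. The count of members at least 2-fold lower was 0 throughout for TS over TBM, CS over CBM, and TBM over CBM. For TS over CS it was 0, but 1 without the filter (*Dusp10*), 1 with hemoglobin, ribosomal protein, and mitochondrial UMIs left out of the total, which let *Dusp10* pass the filter, 1 with the members and immediate-early genes kept in the clustering (*Dusp6*), and 2 without the cluster mostly of TS (*Dusp6* and *Dusp7*). Of 1080 member ratios recomputed over 12 alternatives, 929 stayed inside the counting interval of the reported value and 151 did not, 51 of them with thinned cells, 24 with a minimum of 350 genes, and 18 with classes from each cell's own markers. None of the ratios past 2-fold changed sign. Over the alternatives, *Dusp2* in HSPC-like cells ranged over 1.42 to 1.90 for TS over TBM, 0.16 to 0.64 for TS over CS, and 0.95 to 1.41 for CS over CBM. *Dusp1* in mast or basophil-like cells ranged over -0.58 to 0.17 for TS over CS, across 0. In GMP-like cells *Dusp2* for TS over TBM was 1.17 (1.04 to 1.29) but 0.26 with a minimum of 350 genes, and without the cluster led by *Tsix*, *Dusp5* for TS over CS went from -1.07 (-1.41 to -0.71) to -0.44. Within GMP-like cluster 4, with 57 CS and 106 TS cells, that *Dusp5* ratio was -1.76 (-2.66 to -0.93). Another 326 TS cells were in cluster 9, so the 2 libraries drew on the GMP-like clusters unequally. The causes were not tested. No paired analysis was made, and with 1 library per group no library could be left out. Depth limits *Dusp4* and *Dusp10*, which had 329 and 771 UMIs in all cells.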

Other observations

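In the mast or basophil-like class, *Dusp5* differed both between clusters and between libraries. It was 549 (441 to 676) in TS and 466 (435 to 499.7) in CS against 361 (329 to 396) in TBM and 395 (367 to 425) in CBM in cluster 3, led by chemokine genes, and 128 (96.96 to 167) in TS and 147 (125 to 171) in CS against 49.04 (34.3 to 67.9) in TBM and 39.2 (29.03 to 51.9) in CBM in cluster 23, led by *Gzmb* and *Cma1*. Cluster 21, led by *Prss34* and *Mcpt8*, lay between, at 168 (116 to 235) in TS, 184 (168 to 202) in TBM, and 203 (159.97 to 255) in CBM, with the TS interval overlapping that of cluster 23. In cluster 3 all 4 libraries were above every library of cluster 23, and within cluster 23 both spleen libraries were above both marrow libraries, with a log2 ratio of 1.90 (1.44 to 2.39) for CS over CBM. *Dusp1* was also higher in cluster 3 than in cluster 23 in every library, with 1157 in CS and 1869.8 in TS in cluster 3 against 459.6 and 332 in cluster 23, and 1349.6 in TBM and 804 in CBM against 256 and 285.

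The barcodes left out of the cells also held these transcripts. Among those with at least 350 but fewer than 1000 genes, *Dusp1* was 137 (117 to 158) in TS and 170.4 (156 to 186) in CS against 93.3 (85.2 to 102) in TBM and 87.999 (75.5 to 102) in CBM, and *Dusp2* was 48.4 (37.2 to 61.9) in TS and 57.9 (49.6 to 67.3) in CS against 50.6 (44.7 to 57.1) in TBM and 43.01 (34.5 to 53.1) in CBM. Among those with over 10% mitochondrial UMIs, *Dusp1* was 55.5 (47.4 to 64.6) in TS and 131 (118 to 144) in CS against 78.2 (69.5 to 87.7) in TBM and 52.4 (44.9 to 60.8) in CBM, and *Dusp2* was 73.7 (64.3 to 83.995) in TS and 62.9 (54.2 to 72.5) in CS against 59.3 (51.8 to 67.6) in TBM and 46.1 (39.1 to 54.02) in CBM. Both sets lay at or below the free RNA level of *Dusp1* in CBM, TBM, and CS, and in TS the barcodes with few genes lay above it.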
